A study of Mus musculus with 12 samples.

Results

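The expression of 10 genes of the Wnt pathway was described in U2OS, a human osteosarcoma cell line: the ligands WNT5A and WNT5B, the secreted antagonists SFRP1, DKK1 and DKK3, the receptors FZD2, FZD7 and LRP6, the feedback gene AXIN2, and CTNNB1, which encodes β-catenin. The genes were found by their full names among the 58735 genes of the deposited table, and all 10 were found. They were chosen with results of these same libraries known, and which values led to the choice is not recorded. Their changes and their p-values are therefore given as a description of where they stand among all genes, not as independent evidence. RNA was sequenced in 12 libraries that formed 4 groups of 3 replicates: blank cells, cells given the siRNA siSRSF1-2, cells given the siRNA siSRSF1-3, and OE-LINC01134 cells, in which the long non-coding RNA LINC01134 was upregulated. Both siRNAs target SRSF1, a splicing factor of the SR family. The blank cells carried no siRNA, and no library of cells given a control siRNA was analysed here, so the effects of the transfection and of the siRNA cannot be told apart. The overexpression vector is not given in the sources used here. They do not settle whether the 3 replicates of a group were separate cultures, so p-values measure the spread between these libraries, which may be technical.

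Wnt proteins are secreted lipid-modified ligands that bind Frizzled receptors together with the co-receptors LRP5 and LRP6, or with ROR and RYK receptors. In canonical signalling the receptor complex stops the destruction complex of AXIN, APC and GSK3 from marking β-catenin for degradation, and β-catenin then drives transcription with TCF/LEF factors in the nucleus. WNT5A and WNT5B signal mainly through other branches that act on the cytoskeleton and cell movement, and Wnt signalling is a main regulator of bone formation by osteoblasts, the cells that osteosarcoma resembles.

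The deposited unit was FPKM, which divides fragments by gene length and library size, so levels can be compared between genes. Reads on genes numbered 26237763 to 32954539 per library. The library size behind the FPKM was 0.712 of the reads actually counted in siSRSF1-3 replicate 1, 0.888 in replicate 2 and 0.990 to 1.09 in the other libraries. The libraries did not all resemble their own group. By a chi-square of the reads per gene, in which counting error alone gives about 1, 5 pairs of replicates differed by only 2.30 to 3.75 (blank replicates 2 and 3, OE-LINC01134 replicates 1 and 3, and all pairs of siSRSF1-2), while the other 7 pairs within a group differed by 88.0 to 436. Blank replicate 1 was nearer to OE-LINC01134 replicate 2, at 61.9, than to either other blank library. siSRSF1-3 replicate 3 differed from the siSRSF1-2 libraries by 41.3 to 55.5. Many of the results that rest on these libraries are given with and without them, but not all.

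The targeted genes were checked first. The FPKM of SRSF1 was 35.9, 19.8 and 20.5 in blank cells, 7.09, 7.46 and 7.41 with siSRSF1-2, 3.33, 6.81 and 7.90 with siSRSF1-3 and 31.8, 29.6 and 30.3 in OE-LINC01134 cells. SRSF1 fell with siSRSF1-2 (log2 fold change -1.72, adjusted p = 0.00500 from limma), while with siSRSF1-3 it stood at -2.09 (adjusted p = 0.0518 from limma). LINC01134 was at 891, 1279 and 878 FPKM in its overexpression group and at 0.497 to 0.791 in blank cells. Of the markers of the label, VIM lay between 68.7 and 248 FPKM, SPARC between 36.0 and 111, COL1A1 between 14.1 and 39.7 and RUNX2 between 1.55 and 3.92, but COL1A2 was at most 0.0131. The leukocyte marker PTPRC was at most 0.0559 FPKM. The summed level of the 6 mesenchymal markers ran from 267 to 404 FPKM in blank cells, 138 to 142 with siSRSF1-2, 148 to 259 with siSRSF1-3 and 135 to 348 in OE-LINC01134 cells. VIM and SPARC make up most of this sum, and ALPL, another of the 6, did not follow it with the siRNAs: it was at 5.30 to 5.94 FPKM in blank cells, 7.53 to 7.87 with siSRSF1-2, 7.27 to 12.9 with siSRSF1-3 and 1.09 to 2.22 in OE-LINC01134 cells. RUNX2 averaged 3.55 FPKM in blank cells and 3.47 with siSRSF1-3. The summed level of the 3 epithelial markers EPCAM, CDH1 and KRT8 ran from 36.8 to 59.7, 19.6 to 20.4, 22.7 to 60.7 and 12.7 to 46.7 in the same order. KRT8 made up most of it, while EPCAM was at 0.918 to 1.63 FPKM in blank cells and 2.06 to 2.43 with siSRSF1-3, and CDH1 at 0.345 to 0.594 in blank cells and 0.603 to 0.671 with siSRSF1-2. The part of these differences in the results below was not tested, and in bulk RNA fewer cells of a type cannot be told apart from less RNA per cell.

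Over the 12 libraries the genes covered a wide range of levels. DKK3 and CTNNB1 were the highest, with mean FPKM of 17.6 and 17.4, followed by LRP6 at 8.24, FZD2 at 7.74, FZD7 at 3.33, SFRP1 at 2.09, WNT5A at 1.34 and AXIN2 at 0.827. WNT5B, at 0.339, and DKK1, at 0.210, were under the mean FPKM of 0.5 set as the minimum for the test across genes, so 8 of the 10 genes were tested among 17538 genes. The genes just inside and just outside this limit were AXIN2 and WNT5B. Pairs of groups were compared by limma on log2(FPKM + 0.1), a scale that understates changes of low genes. A gene was called where its log2 fold change exceeded 1 in size and its p, adjusted by the Benjamini-Hochberg method over all genes tested, was under 0.05. For a single gene, 0.1 is the smallest p that an exact permutation test can reach with 3 libraries a group.

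**Figure D1:**
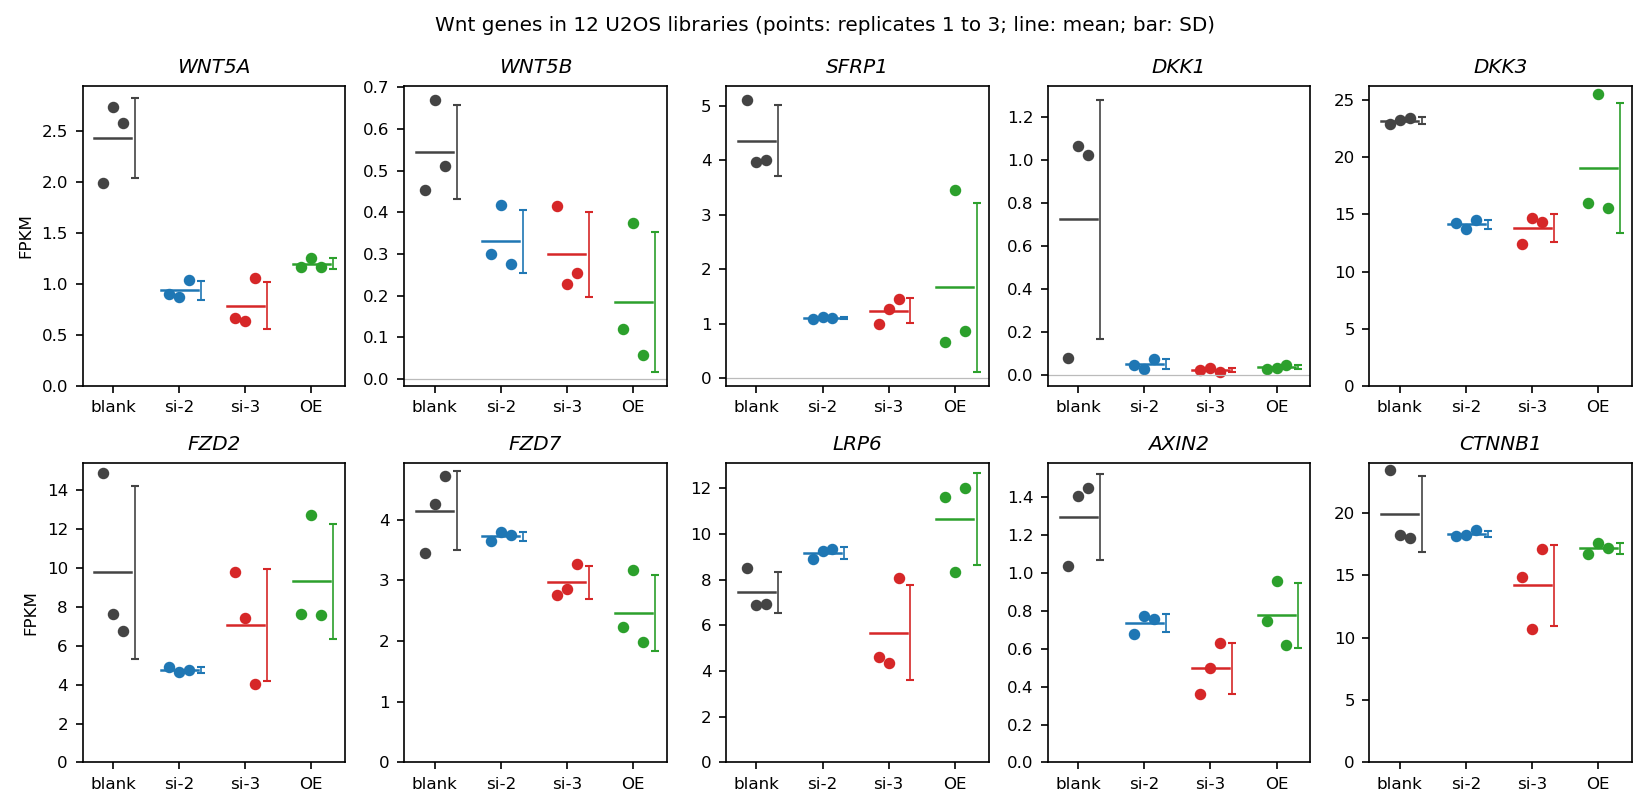
FPKM (vertical axes, linear and including 0) of the 10 Wnt genes in blank, siSRSF1-2 (si-2), siSRSF1-3 (si-3) and OE-LINC01134 (OE) cells, with points for replicates 1 to 3 from left to right, a line at the mean and a bar of 1 SD. WNT5A, WNT5B, SFRP1, DKK1 and AXIN2 lay lower in every library of the 3 other groups than in any blank library, and the replicates of SFRP1, DKK3, FZD2 and LRP6 split within groups.

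Of the 10 genes 5, WNT5A, WNT5B, SFRP1, DKK1 and AXIN2, lay below every blank library in all 3 other groups, the OE-LINC01134 group among them. Of these, WNT5A, SFRP1 and AXIN2 were among the 8 genes tested, and the same held for 3.32% of all 17538 genes tested, from which nothing is read for genes chosen with these libraries known. DKK1 met this by a margin of 0.0819 against 0.0767 FPKM, from 5 and 6 reads. In OE-LINC01134 cells SRSF1 was at 29.6 to 31.8 FPKM, within the range of the blank libraries but above blank replicates 2 and 3 (19.8 and 20.5). All 3 comparisons share the same blank libraries, so they are not independent of each other. LRP6 was the only one of the 10 genes with all libraries of a group above every blank library, which was the case with siSRSF1-2.

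WNT5A, the non-canonical ligand (ENSG00000114251, chromosome 3, 55465715 to 55490539, minus strand; the genome build is not given in the sources used here), was at 1.99, 2.73 and 2.58 FPKM in blank cells. It was at 0.899, 0.870 and 1.04 with siSRSF1-2, at 0.669, 0.638 and 1.05 with siSRSF1-3, and at 1.17, 1.26 and 1.17 in OE-LINC01134 cells. The blank libraries were the highest and did not overlap with any other group, the OE-LINC01134 libraries came next and apart from siSRSF1-2, and the ranges of both siRNA groups overlapped. Against blank cells the log2 fold change was -1.28 with siSRSF1-2 (95% interval -1.67 to -0.90, adjusted p = 0.00386 from limma), so WNT5A fell in that group. It was -1.53 with siSRSF1-3 (-2.19 to -0.87, adjusted p = 0.0512 from limma), which missed the threshold, and -0.95 in OE-LINC01134 cells (-1.38 to -0.52, adjusted p = 0.0590 from limma). Without siSRSF1-3 replicate 3, the change with siSRSF1-3 was -1.74 with an adjusted p of 0.0117 from limma. That omission raised the genes called lower from 163 to 1992 of 17538. Without blank replicate 1 the change in OE-LINC01134 cells was -1.09 with an adjusted p of 0.0162 from limma, and the genes called lower rose from 104 to 645. The call with siSRSF1-2 counts its 3 nearly identical libraries as replicates, and it held in 1 fit over all 4 groups. With these libraries averaged to 1 in such a fit, the change was -1.28 and the call was lost. The averaged fit takes its spread from the other groups, so what the call rested on was not tested. The antisense RNA WNT5A-AS1 lies on the opposite strand within the gene and held 2 to 25 reads per library, against 97 to 624 for WNT5A. Whether the counting used strand is not stated, so reads of overlapping genes on opposite strands cannot be told apart.

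WNT5B, a close relative of WNT5A (ENSG00000111186, chromosome 12, 1529891 to 1647243, plus strand), was a low gene, with 7 to 82 reads per library. Its FPKM was 0.453, 0.670 and 0.511 in blank cells, 0.299, 0.417 and 0.275 with siSRSF1-2, 0.415, 0.228 and 0.253 with siSRSF1-3, and 0.120, 0.374 and 0.0569 in OE-LINC01134 cells. The blank libraries stood above all others, and the 3 other groups overlapped each other. FBXL14, on the opposite strand inside the gene, held 75 to 1063 reads per library, so the level of WNT5B is uncertain. With no filter on low values the log2 fold change was -0.71 with siSRSF1-3, -0.58 with siSRSF1-2 and -1.33 in OE-LINC01134 cells, with adjusted p of 0.337, 0.232 and 0.286 from limma.

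SFRP1, a secreted Frizzled-related protein that binds Wnt ligands and keeps them from their receptors (ENSG00000104332, chromosome 8, 41261958 to 41309497, minus strand), was at 5.11, 3.96 and 4.01 FPKM in blank cells. It was at 1.08, 1.12 and 1.11 with siSRSF1-2, at 0.996, 1.28 and 1.45 with siSRSF1-3, and at 0.674, 3.46 and 0.867 in OE-LINC01134 cells. Every blank library was above every other library, but OE-LINC01134 replicate 2 stood near the blank cells while replicates 1 and 3 were below every siRNA library. SFRP1 fell with siSRSF1-2, by a log2 fold change of -1.88 (95% interval -2.19 to -1.58, adjusted p = 0.00102 from limma), and with siSRSF1-3, by -1.74 (-2.27 to -1.20, adjusted p = 0.0426 from limma). In OE-LINC01134 cells the value was -1.68 (-2.98 to -0.37, adjusted p = 0.126 from limma), and without replicate 2 it was -2.36 with an adjusted p of 0.00502 from limma. Leaving out that replicate raised the genes called lower in OE-LINC01134 cells from 104 to 1029 of 17538. The call with siSRSF1-3 was lost when any 1 of the other 5 libraries than siSRSF1-3 replicate 3 was left out, with adjusted p between 0.0703 and 0.219 from limma and changes between -1.80 and -1.60. The call with siSRSF1-2 held in 1 fit over all 4 groups and was lost when its libraries were averaged to 1 in such a fit (log2 fold change -1.88). SFRP1 also stands in the study's own list of lower genes, which was chosen on these libraries.

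DKK1, an antagonist that binds LRP5 and LRP6 (ENSG00000107984, chromosome 10, 52314296 to 52318042, plus strand), was at 0.0819, 1.07 and 1.03 FPKM in blank cells, from 5, 67 and 74 reads. In the 9 other libraries it had 1 to 6 reads: 3, 2 and 6 with siSRSF1-2, 1, 2 and 1 with siSRSF1-3, and 2, 2 and 3 in OE-LINC01134 cells. DKK1 was thus above 6 reads in 2 of the 12 libraries, the nearly identical blank replicates 2 and 3, and blank replicate 1 lay with the other groups. With no filter on low values the log2 fold change was -2.32 with siSRSF1-3, -2.05 with siSRSF1-2 and -2.18 in OE-LINC01134 cells, none of them called (adjusted p of 0.270, 0.244 and 0.300 from limma). At 1 to 6 reads these values depend on the pseudocount and are no measure of the size of the difference.

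DKK3, a Dickkopf relative whose place in Wnt signalling is less settled (ENSG00000050165, chromosome 11, 11963106 to 12009769, minus strand), was at 22.9, 23.3 and 23.4 FPKM in blank cells. It was at 14.2, 13.7 and 14.5 with siSRSF1-2, at 12.4, 14.7 and 14.4 with siSRSF1-3, and at 15.98, 25.6 and 15.6 in OE-LINC01134 cells. Both siRNA groups lay below the blank and the OE-LINC01134 libraries and overlapped each other, and in OE-LINC01134 cells replicate 2 alone was above the blank level. On the log2 scale DKK3 differed by -0.71 with siSRSF1-2 (95% interval -0.84 to -0.58, adjusted p = 0.00130 from limma), under the minimum fold change. With siSRSF1-3 it was -0.75 (-1.13 to -0.37, adjusted p = 0.0634 from limma). In OE-LINC01134 cells it was -0.32 (-0.80 to 0.15), and -0.55 without their replicate 2.

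**Figure D2:**
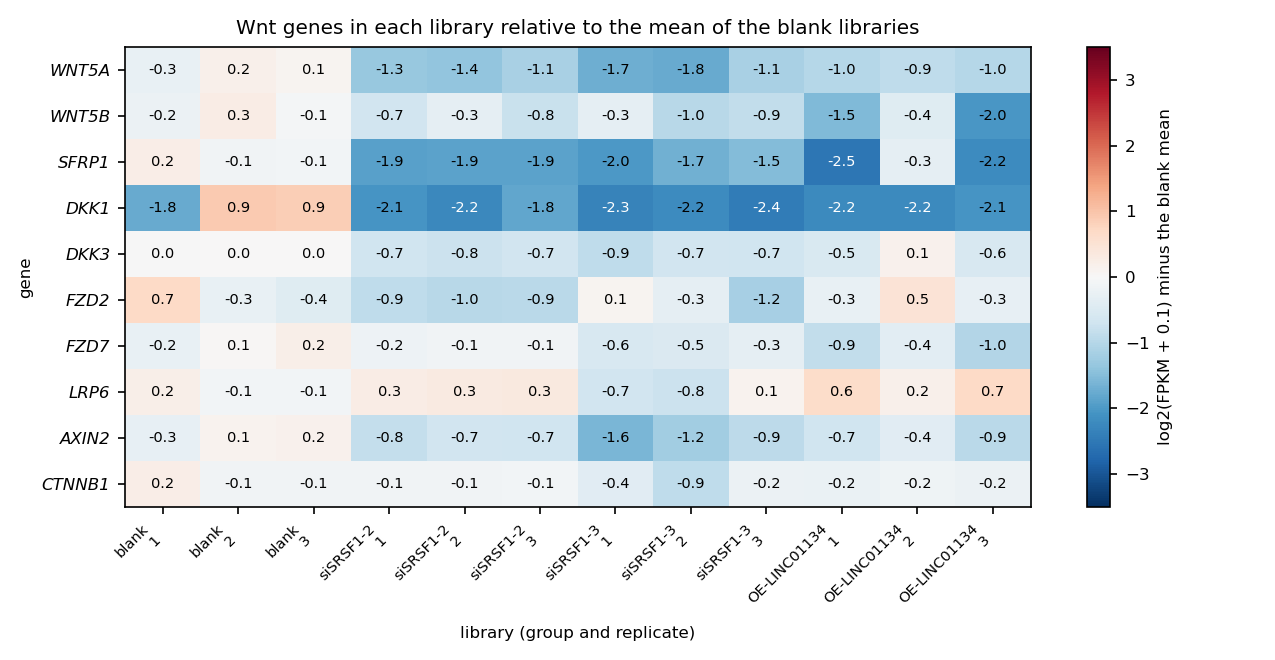
Difference of each library (columns) from the mean of the blank libraries on the log2(FPKM + 0.1) scale for the 10 Wnt genes (rows), with the value printed to 1 decimal and blue for lower, red for higher. DKK1 was high only in blank replicates 2 and 3, SFRP1 and DKK3 in OE-LINC01134 replicate 2 stood near the blank level, and LRP6 was low only in siSRSF1-3 replicates 1 and 2.

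FZD2, a Frizzled receptor of canonical and WNT5A signalling (ENSG00000180340, chromosome 17, 44557459 to 44559570, plus strand), was at 14.9, 7.66 and 6.79 FPKM in blank cells. It was at 4.93, 4.63 and 4.75 with siSRSF1-2, at 9.78, 7.41 and 4.04 with siSRSF1-3, and at 7.66, 12.7 and 7.59 in OE-LINC01134 cells. Blank replicate 1 and OE-LINC01134 replicate 2, the libraries that resembled each other, were the highest, and siSRSF1-2 was below every blank and OE-LINC01134 library. On the log2 scale the difference with siSRSF1-2 was -0.93 against blank cells (95% interval -1.63 to -0.23, adjusted p = 0.0597 from limma) and -0.59 without blank replicate 1. With siSRSF1-3 it was -0.46 (-1.44 to 0.52), and in OE-LINC01134 cells -0.02 (-0.83 to 0.79).

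FZD7, another Frizzled receptor (ENSG00000155760, chromosome 2, 202034587 to 202038445, plus strand), was at 3.45, 4.27 and 4.73 FPKM in blank cells. It was at 3.65, 3.80 and 3.74 with siSRSF1-2, at 2.76, 2.86 and 3.27 with siSRSF1-3, and at 2.24, 3.18 and 1.99 in OE-LINC01134 cells. The siSRSF1-2 libraries lay within the blank range, while siSRSF1-3 and OE-LINC01134 were below every blank library and overlapped each other. Its difference on the log2 scale was -0.74 in OE-LINC01134 cells (95% interval -1.26 to -0.23, adjusted p = 0.103 from limma), -0.46 with siSRSF1-3 (-0.92 to -0.0018) and -0.14 with siSRSF1-2 (-0.45 to 0.17).

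LRP6, the co-receptor that DKK1 binds (ENSG00000070018, chromosome 12, 12116025 to 12267012, minus strand), was at 8.49, 6.91 and 6.93 FPKM in blank cells. It was at 8.89, 9.27 and 9.36 with siSRSF1-2, at 4.61, 4.36 and 8.07 with siSRSF1-3, and at 11.6, 8.34 and 12.01 in OE-LINC01134 cells. The mean of siSRSF1-2 was above the blank mean and that of siSRSF1-3 below it. Every siSRSF1-2 library was above every blank library. Replicates 1 and 2 of siSRSF1-3 were below every blank library, while replicate 3 was inside the blank range. On the log2 scale that replicate 3 was 0.12 above the blank mean, on the same side as siSRSF1-2. Against blank cells the log2 fold change was 0.30 with siSRSF1-2 (95% interval 0.06 to 0.54, adjusted p = 0.0686 from limma), -0.43 with siSRSF1-3 (-1.07 to 0.20) and 0.50 in OE-LINC01134 cells (0.08 to 0.92, adjusted p = 0.144 from limma). Between siSRSF1-3 and siSRSF1-2 it was -0.74 (-1.34 to -0.14, adjusted p = 0.0915 from limma) with no overlap of libraries. Without siSRSF1-3 replicate 3 it was -1.02 with an adjusted p of 0.00135 from limma. Leaving out that library raised the genes called lower in this comparison from 9 to 2551 of 17538, so nothing is read from that call for LRP6. LRP6 is a long gene, at 10337 bases of the table's gene length, and the trend of all genes with length stood at -0.37 for its length in that comparison.

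AXIN2, a scaffold of the destruction complex that canonical signalling induces as negative feedback (ENSG00000168646, chromosome 17, 65528563 to 65561647, minus strand), was at 1.04, 1.41 and 1.45 FPKM in blank cells. It was at 0.680, 0.771 and 0.755 with siSRSF1-2, at 0.361, 0.497 and 0.632 with siSRSF1-3, and at 0.746, 0.960 and 0.623 in OE-LINC01134 cells. The blank libraries were the highest, siSRSF1-3 lay below siSRSF1-2 with no overlap, and OE-LINC01134 overlapped with both siRNA groups. Against blank cells the log2 fold change was -1.24 with siSRSF1-3 (95% interval -2.01 to -0.47, adjusted p = 0.0870 from limma), -0.73 with siSRSF1-2 (-1.16 to -0.30, adjusted p = 0.0291 from limma, under the minimum fold change) and -0.68 in OE-LINC01134 cells (-1.27 to -0.09, adjusted p = 0.152 from limma). Without siSRSF1-3 replicate 3 the value with siSRSF1-3 was -1.40 with an adjusted p of 0.0201 from limma. That omission raised the genes called lower from 163 to 1992 of 17538.

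CTNNB1 (ENSG00000168036, chromosome 3, 41194741 to 41260096, plus strand), whose protein carries the canonical signal, was at 23.4, 18.3 and 18.0 FPKM in blank cells. It was at 18.1, 18.2 and 18.6 with siSRSF1-2, at 14.8, 10.7 and 17.1 with siSRSF1-3, and at 16.7, 17.6 and 17.2 in OE-LINC01134 cells. The siSRSF1-2 libraries lay within the blank range, and siSRSF1-3 and OE-LINC01134 below it. The log2 fold change was -0.50 with siSRSF1-3 (95% interval -1.04 to 0.05), -0.20 in OE-LINC01134 cells (-0.51 to 0.11) and -0.11 with siSRSF1-2 (-0.38 to 0.17), and none was called. Without siSRSF1-3 replicate 3 the value with siSRSF1-3 was -0.64, and without replicate 2 it was -0.31. These are RNA levels and say nothing of the stability of β-catenin protein. CTNNB1 is the longest of the 10 genes, at 11927 bases, and the trend of all genes with length stood at -0.28 for its length with siSRSF1-3 against blank cells. ULK4, on the opposite strand at this locus, held 152 to 276 reads per library against 3242 to 7861 for CTNNB1.

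**Figure D3:**
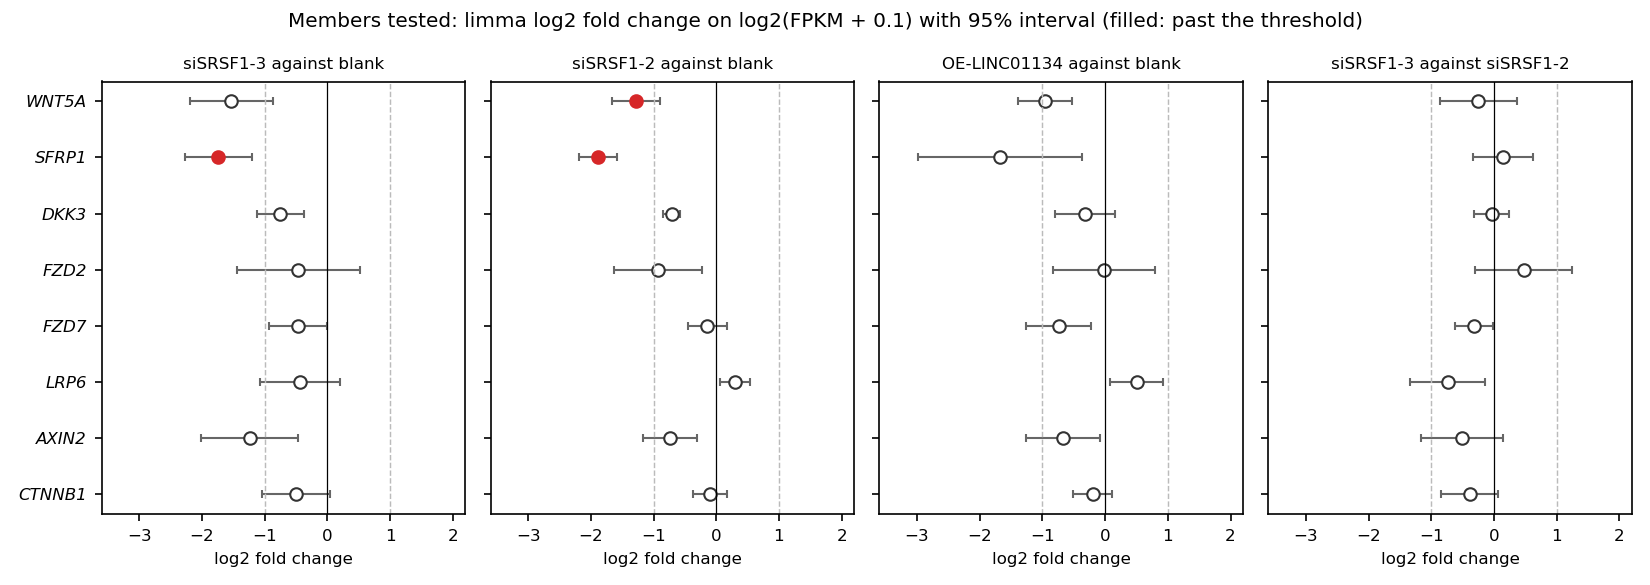
Log2 fold change (horizontal axes, limma on log2(FPKM + 0.1)) of the 8 Wnt genes tested, with its 95% interval, in 4 comparisons, with filled points for genes past the threshold and dashed lines at the minimum fold change. SFRP1 was past the threshold with both siRNAs and WNT5A with siSRSF1-2, and LRP6 was on the higher side with siSRSF1-2 and in OE-LINC01134 cells.

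Counted together, 1 of the 8 genes tested (SFRP1) was called lower with siSRSF1-3, where 0.929% of all genes were, and 3 (WNT5A, SFRP1 and AXIN2) were lower by the same fold change at a p under 0.05 without adjustment, where 7.24% of all genes were. With siSRSF1-2, 2 of the 8 (WNT5A and SFRP1) were called lower, where 2.73% of all genes were. In OE-LINC01134 against blank cells 0 of the 8 were called by limma, where 0.85% of all genes were called in either direction, and 1 (SFRP1) was lower at a p under 0.05 without adjustment, where 5% of all genes were. Nothing is read from these shares, since the genes were chosen with these values known. The median log2 fold change of the 8 genes was -0.62 with siSRSF1-3, -0.72 with siSRSF1-2 and -0.50 in OE-LINC01134 cells, and that of all genes tested was -0.01, 0.02 and 0.05. Lower and not overlapping with the blank libraries were 6 of the 8 with siSRSF1-3 (18% of all genes), 5 with siSRSF1-2 (24.2%, while LRP6 was higher and not overlapping, as were 25.3% of all genes) and 5 in OE-LINC01134 cells (13.8%).

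Between the 2 siRNAs, 0 of the 8 genes were called by limma, where 0.0855% of all genes were, and 0 passed the fold change at a p under 0.05 without adjustment, where 16.4% of all genes did. The intervals leave room for differences: that of WNT5A ran from -0.87 to 0.37, that of SFRP1 from -0.33 to 0.62 and that of AXIN2 from -1.17 to 0.15 on the log2 scale. FZD7, LRP6, AXIN2 and CTNNB1 were lower in every siSRSF1-3 library than in any siSRSF1-2 library, which held for 27.6% of all genes. Against OE-LINC01134 cells 0 of the 8 were called with siSRSF1-3 (3.44% of all genes) and 0 with siSRSF1-2 (6.69%) by limma, and 0 in either passed without adjustment of the p (17.6% and 8% of all genes). FZD2, at -0.91, and FZD7, at 0.60, had adjusted p of 0.0227 and 0.0494 from limma with siSRSF1-2 against OE-LINC01134 cells but were under the minimum fold change.

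The values with siSRSF1-3 were also computed under other scalings of all libraries. Scaling by the reads counted in each library instead moved the median of all genes to -0.26 with siSRSF1-3 against blank cells, and giving every library an equal sum of FPKM moved it to -0.43. In the same order SFRP1 stood at -1.97 and -2.14, WNT5A at -1.76 and -1.91 and AXIN2 at -1.45 and -1.59. Relative to the median of all genes SFRP1 stood at -1.72 and -1.71, WNT5A at -1.50 and -1.48 and AXIN2 at -1.19 and -1.16. Each scaling multiplies all genes of a library by the same factor, so taking off the median largely undoes it. These relative values lie close to those above by construction, and nothing is read from that. Under either scaling 0 of the 8 genes were called, SFRP1 having adjusted p of 0.0550 and 0.0799 from limma.

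The other genes of the pathway were taken from a list of 104 genes written from gene function, of which 65 passed the filter. The list was chosen with earlier results of these data known, so its counts are a description and not independent evidence. With siSRSF1-3, 0 of the 65 were called higher and 2 lower than in blank cells by limma, where 0.331% and 0.929% of all genes were. CCND1, the cyclin D1 gene and a known β-catenin target, was at 40.5, 29.8 and 29.7 FPKM in blank cells and at 5.47, 5.57 and 6.76 with siSRSF1-3, far below every blank library. Its log2 fold change was -2.46 (adjusted p = 0.0184 from limma). In OE-LINC01134 cells, where SRSF1 lay within the blank range, CCND1 was at -1.60 (adjusted p = 0.0600 from limma), below every blank library. The others of the 4 targets tested went both ways. MYC was at 0.55 with siSRSF1-3 and 0.26 with siSRSF1-2, CD44 at -0.77 and -0.39, and NKD2 at 0.22 and -0.22. DIXDC1, which acts with Dishevelled upstream of β-catenin, was at 2.27, 1.69 and 1.57 FPKM in blank cells and 0.456, 0.236 and 0.347 with siSRSF1-3 (log2 fold change -2.14, adjusted p = 0.0453 from limma). The calls of CCND1 and DIXDC1 were both lost without blank replicates 2 or 3 or siSRSF1-3 replicate 2, where 0 of all genes tested were called. Without blank replicate 1 or siSRSF1-3 replicate 1, 1 gene of the list was called. CCND1, DIXDC1 and CELSR2 also stand in the study's list of lower genes from these libraries.

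With siSRSF1-2, 0 of the 65 were called higher and 7 lower by limma, where 2.22% and 2.73% of all genes were. As the list was chosen with earlier results of these data known, nothing is read from this share. CCND1, at 10.99, 10.8 and 11.8 FPKM, changed by -1.55 (adjusted p = 0.00168 from limma), and DIXDC1, at 0.511, 0.565 and 0.616, by -1.54 (adjusted p = 0.00368 from limma). The other 5 were KREMEN2, a DKK receptor, at -1.24, the Frizzled receptors FZD8 and FZD4 at -1.12 and -1.04, the ligand WNT3 at -1.11 and CELSR2, a cadherin of planar polarity, at -1.01. As for SFRP1 and WNT5A, the calls were lost once the siSRSF1-2 libraries were averaged to 1 in a fit over all 4 groups. The median of the 65 genes was -0.06 with siSRSF1-2, -0.13 with siSRSF1-3 and -0.08 in OE-LINC01134 cells.

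In OE-LINC01134 cells, 0 of the 65 were called higher and 2 lower by limma, where 0.257% and 0.593% of all genes were. FZD8 was at 2.08, 3.32 and 3.26 FPKM in blank cells and at 0.685, 0.817 and 0.816 in OE-LINC01134 cells (log2 fold change -1.75, adjusted p = 0.0384 from limma). DAAM2, a formin of the planar polarity branch, was at 1.12, 1.28 and 1.15 in blank cells and at 0.144, 0.212 and 0.146 in OE-LINC01134 cells (log2 fold change -2.27, adjusted p = 0.0370 from limma). The calls of FZD8 and DAAM2 were both lost without blank replicates 2 or 3 or OE-LINC01134 replicates 1 or 3. Against OE-LINC01134 cells the ligand WNT6 and the R-spondin RSPO4, an amplifier of Wnt signalling, were higher with siSRSF1-3 (2.32 for each) and with siSRSF1-2 (1.40 and 2.28), and DAAM2 was higher with siSRSF1-2 (1.29), where 2.1% of all genes were called higher with siSRSF1-3 and 4.33% with siSRSF1-2. The calls of WNT6 and RSPO4 with siSRSF1-3 were lost without OE-LINC01134 replicates 1 or 3 and without siSRSF1-3 replicates 1 or 2. The calls with siSRSF1-2 were lost when its libraries were averaged to 1 in a fit over all 4 groups. Against blank cells WNT6 and RSPO4 were at -1.71 and -1.56 in OE-LINC01134 cells, 0.60 and 0.76 with siSRSF1-3 and -0.31 and 0.72 with siSRSF1-2. DAAM2 was at -0.98 with siSRSF1-2 against blank cells, and none of these values was called. Between siSRSF1-3 and siSRSF1-2, 0 of the 65 were called by limma, where 0.0855% of all genes were. Without adjustment of the p, 4 of the 65 passed, where 16.4% of all genes did.

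**Figure D4:**
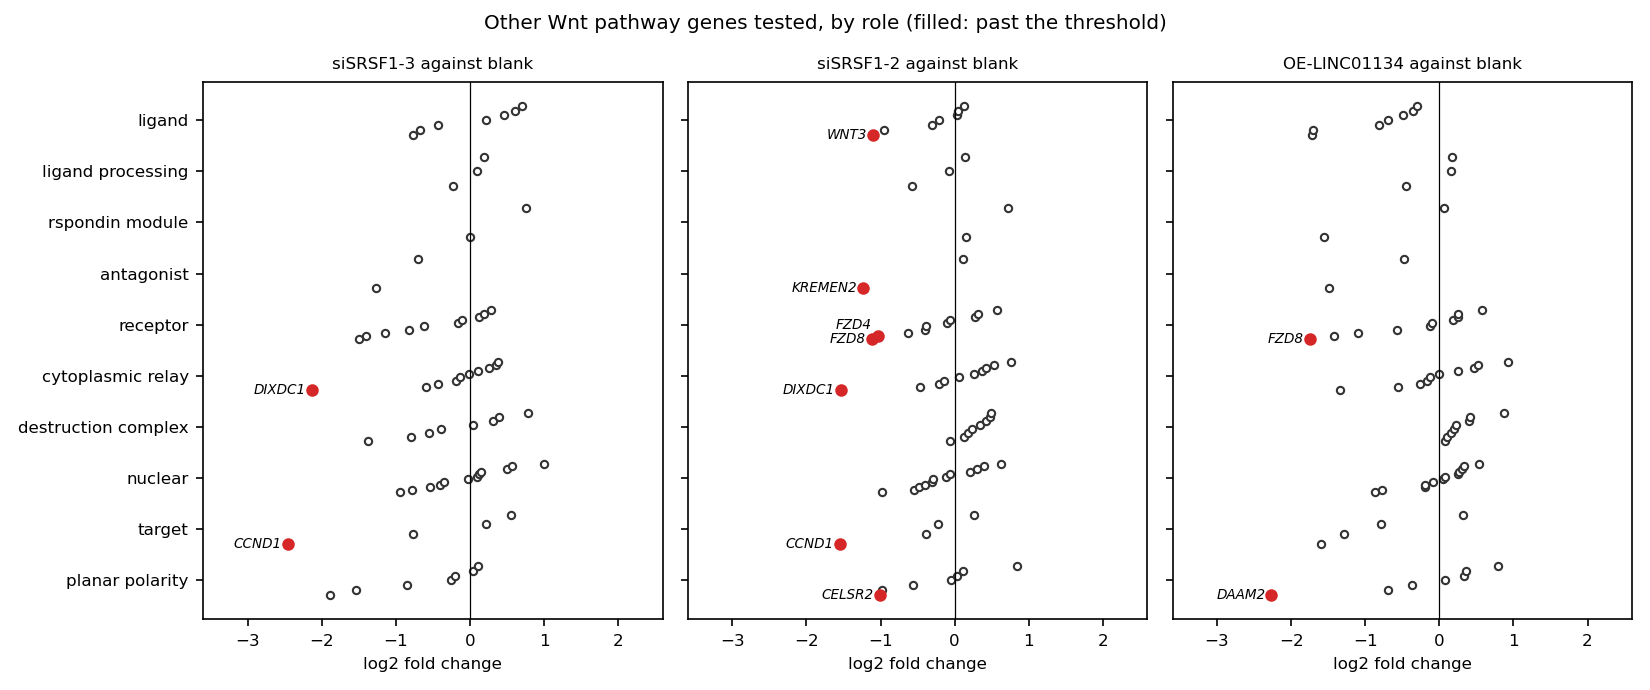
Log2 fold change against blank cells (horizontal axes) of the 65 other Wnt pathway genes tested, 1 point each, grouped by role, with genes past the threshold filled and named. The called genes all lay on the lower side, 2 with siSRSF1-3, 7 with siSRSF1-2 and 2 in OE-LINC01134 cells, and most roles were spread on both sides of 0.

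The most abundant gene of each role gave the setting in which the 10 genes were expressed. MYC, a target, was at 73.6 to 147 FPKM and DVL1, a Dishevelled relay, at 37.5 to 58.4. The ligand carrier WLS was at 11.6 to 23.2, the destruction complex kinase GSK3A at 14.96 to 38.7, the nuclear cofactor PYGO2 at 14.0 to 25.1 and the receptor FZD6 at 13.7 to 23.6. VANGL2 of planar polarity was at 6.64 to 11.9 and RSPO4 at 1.63 to 13.9, while the highest ligand of the list, WNT10B, was at 1.43 to 3.70 and the antagonist partner KREMEN1 at 1.14 to 3.84. FZD6 was thus the highest Frizzled receptor by mean FPKM, above FZD2 and FZD7, and WNT10B the highest ligand, above WNT5A.

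Likeness of pattern was described by Pearson's r of log2(FPKM + 0.1) over the 12 libraries, which share their groups and their near-identical replicates. Among the 10 genes WNT5A and AXIN2 were the most alike (r = 0.93, n = 12 libraries), and WNT5B and LRP6 the least (r = -0.48, n = 12 libraries). Of 45 pairs, 6 had an r below 0, and 5 of these included LRP6. Among genes averaging 1 FPKM or more, the 2 most like WNT5A were FOSL2, an AP-1 subunit (0.99), and the gap junction gene GJA1 (0.97). For SFRP1 they were TSKU (0.98) and KIAA0895L (0.97), and for AXIN2 they were LOXL2 and AKAP12 (0.98 each). DKK1 was most like BASP1 (0.98) and UCHL1 (0.96), and WNT5B most like MICAL1 (0.96). LRP6 was most like MED12 and KDM5A (0.99 each), FZD2 like USP5 and CENPA (0.97 each), FZD7 like GRAMD1B and GFPT2 (0.97 each), DKK3 like SMOC1 and MYH15 (0.97 each) and CTNNB1 like GOLIM4 and DOCK5 (0.94 each).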

How the data were processed

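The authors deposited FPKM per gene for 12 libraries, with gene lengths and coordinates, from paired-end Illumina reads. The aligner, the counter and the human genome build are not given in the sources used here: the labels name mouse as organism and mouse builds, but the gene identifiers are human Ensembl ones and U2OS is a human line. The labels name a SMARTer kit and the supplementary methods a NEBNext kit. The same methods speak of biological replicates in a different number than the 3 libraries per group of the labels. For transient transfection the paper's methods name HOS, another osteosarcoma line, while its results and the labels give U2OS for the sequenced cells. FPKM times gene length gave whole reads for 100% of values (tolerance 0.01 reads), and the implied library sizes carried median-of-ratios size factors over the 12 libraries. Depth is in reads on genes, and read counts cover counting error only.

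Symbols were matched through full names (128 of 128). Of the 58735 genes, the 17538 that averaged 0.5 FPKM or more over the libraries were kept, and their log2(FPKM + 0.1) was fitted for each pair of groups (3 + 3 libraries) with limma 3.58.1 in R 4.3.3 (lmFit, eBayes with a trend). Calls needed a log2 fold change over 1 in size and a p under 0.05 after Benjamini-Hochberg adjustment over all genes tested. The length trend was a loess (span 0.5) of the fold change on log2 gene length. Figures used matplotlib.

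The 10 genes, the list of 104 other Wnt genes and the tests were chosen with earlier results of these data known. Named beyond the 10 genes were SRSF1, LINC01134, every called gene of the list, the most abundant gene of each role and, for each of the 10, the 2 most like genes, of which 1 is not reported here. WNT6, RSPO4 and DAAM2 against OE-LINC01134 cells were named after their values were seen. Alternatives were pseudocounts of 1 and 0.01, no filter or a minimum of 1, 2 other scalings, voom, eBayes without trend, 1 fit over 4 groups, a replicate block, removal of the length trend, averaging of replicates, other thresholds and the omission of each library. Averaging all near-identical replicates was added after the data were seen. Fits with averaged libraries held all 4 groups rather than the pair, so groups outside the pair entered their spread. No sequences were printed, since the reference used here was of another species.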

Additional observations from a re-analysis of the deposited data

How the results depend on the processing

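Of 882 values of single Wnt genes under other settings, 835 kept their direction and their side of the threshold, 19 changed sign, 15 lost the call and 13 gained it. Most of the 835 were values that were not called in either setting, so they do not measure how stable the calls were. The only calls in the main setting were SFRP1 with siSRSF1-3 and WNT5A and SFRP1 with siSRSF1-2, and all 15 losses fell on these. With siSRSF1-3 against blank cells the count of called Wnt genes moved from 1 to 0 with no filter, with both scalings, with the replicate block and with near-identical libraries averaged, to 2 with voom and to 3 in 1 fit over 4 groups and at an unadjusted p under 0.05. The count of the wider list moved from 2 to 1 with a pseudocount of 0.01, no filter, a minimum of 1, own read totals or the length trend removed, to 0 with the same sum, the replicate block or averaging, to 6 with voom and to 10 in 1 fit over 4 groups and at the unadjusted p. With siSRSF1-2 the Wnt genes called moved from 2 to 1 with a pseudocount of 1, to 0 with either averaging and to 4 with no minimum fold change, and the wider list from 7 to 1 with a pseudocount of 1, 3 with the same sum, 3 in 1 fit over 4 groups, 0 with either averaging and 28 with no minimum fold change. In OE-LINC01134 cells the Wnt genes called moved from 0 to 1 (WNT5A) with voom and to 1 (SFRP1) at the unadjusted p, and the wider list from 2 to 1 with a pseudocount of 1, no filter or a minimum of 1, to 0 with the replicate block or averaging, to 10 in 1 fit over 4 groups and to 11 at the unadjusted p. Between the siRNAs the wider list moved from 0 to 4 in 1 fit over 4 groups and at the unadjusted p, and with siSRSF1-2 against OE-LINC01134 cells the Wnt genes moved from 0 to 2 with no minimum fold change. Against OE-LINC01134 cells the wider list with siSRSF1-3 moved from 2 to 0 with no filter, the same sum or averaging, to 3 with a minimum of 1, to 4 with voom and to 11 in 1 fit over 4 groups, and with siSRSF1-2 from 3 to 1 with a pseudocount of 1 and to 0 with either averaging. The calls over all 17538 genes moved too. In 1 fit over 4 groups 1245 were higher and 1177 lower with siSRSF1-3, 174 and 515 in OE-LINC01134 cells, and 1472 and 1259 between the siRNAs. At the unadjusted p 14.8%, 7.45% and 16.4% of all genes passed in that order. With no minimum fold change the share of all genes was not counted, so nothing is read from those counts. Beyond the number of libraries or genes entering a fit, the cause of these shifts was not tested.

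With 1 library left out, the Wnt genes called ranged from 0 to 3 with siSRSF1-3, 2 to 3 with siSRSF1-2, 0 to 1 in OE-LINC01134 cells and 0 to 1 in each of the 3 comparisons among the other groups. The wider list ranged from 0 to 13 with siSRSF1-3, 6 to 9 with siSRSF1-2, 0 to 16 in OE-LINC01134 cells, 0 to 12 between the siRNAs, and against OE-LINC01134 cells 0 to 14 with siSRSF1-3 and 2 to 7 with siSRSF1-2. The highest of these came without siSRSF1-3 replicate 3 (13, 12 and 14) and without OE-LINC01134 replicate 2 (16 and 7). FZD2 was called lower with siSRSF1-2 without blank replicate 3 (-1.15), and against OE-LINC01134 cells without their replicates 1 or 3 (-1.03 and -1.04), and LRP6 was called lower with siSRSF1-3 against OE-LINC01134 cells without siSRSF1-3 replicate 3 (-1.21). Where a group was left with 1 library by averaging, that library was assumed to vary like the other groups.

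The replicate numbers showed no pairing throughout: the deviations of same-numbered libraries correlated from -0.08 to 0.21, over 0.1 in 2 of 18 pairs. Those 2 were replicates 2 and 3 of OE-LINC01134 and siSRSF1-3. Deviations within groups of 3 libraries cannot decide whether same-numbered libraries shared a culture or a batch. With the replicate block, the call of SFRP1 with siSRSF1-3 was lost (adjusted p = 0.145 from limma), the wider list's counts with siSRSF1-3 and in OE-LINC01134 cells were 0, and the calls of WNT5A and SFRP1 with siSRSF1-2 held.

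Signs changed only for values under 0.5 in size in the main setting, listed here on the log2 scale. With siSRSF1-2 against blank cells CTNNB1 was 0.025 with the same sum, and ran from -0.17 to 0.016 with 1 library left out (above 0 without blank replicate 1). In OE-LINC01134 cells FZD2 was 0.067 with the same sum and 0.057 with the length trend removed, and ran from -0.27 to 0.32 (above 0 without blank replicate 1 or OE-LINC01134 replicates 1 or 3). Between the siRNAs SFRP1 was -0.37 with the same sum and -0.13 with own totals, FZD2 -0.099 with the same sum, and DKK3 0.0074 and CTNNB1 0.043 with the length trend removed, and DKK3 ran from -0.083 to 0.038 (above 0 without siSRSF1-3 replicate 1). With siSRSF1-3 against OE-LINC01134 cells FZD7 was -0.23 with the same sum and CTNNB1 0.046 with the length trend removed, and SFRP1 ran from -0.48 to 0.62 (above 0 without OE-LINC01134 replicate 2 or siSRSF1-3 replicate 1). With siSRSF1-2 against OE-LINC01134 cells SFRP1 ran from -0.63 to 0.47 and AXIN2 from -0.18 to 0.094, both above 0 without OE-LINC01134 replicate 2. Depth limits DKK1 and WNT5B, with 1 to 74 and 7 to 82 reads per library.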
